A study of Homo sapiens with 6 samples.

Results

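The genes described here are the MYC family and its network, measured in the human neuroblastoma cell line SH-SY5Y. They comprise the MYC paralogs MYC, MYCN and MYCL, their obligate partner MAX, the antagonists MXD1, MXD4, MXI1 and MNT, the RNA-binding protein gene LIN28B, and the MYC target ODC1. They were chosen by name, and all 10 were found among the 60709 genes with usable counts. Each had at least 10 counts in every library, against 62.2% of the 19913 protein-coding genes.

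The series holds 3 control samples, given 10 uL DMSO, and 3 samples given the fumarate joined to an Nrf2 peptide, of which 200 uL (from 2 mg in 600 uL of water) was added together with 10 uL DMSO. All cells were SH-SY5Y in 2 mL of medium at 80% confluence and were lysed 5 h after the addition. Messenger RNA was sequenced from total RNA with a stranded library kit. The labels call the controls samples 4, 5 and 6, and count columns with those names were taken as control replicates 1, 2 and 3. No column carries a number of the peptide-treated samples (13, 14 and 15), so that group was not analysed here and no treated-against-control difference is given. Should the headings of the count table follow another numbering than the labels, the libraries called controls below may be others. Nothing in the labels ties the wells to separate cultures, so the spread given may be technical.

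MYC proteins are transcription factors of the basic helix-loop-helix leucine zipper class. They bind DNA, typically at the E-box CACGTG, only as heterodimers with MAX. The MXD proteins, MXI1 and MNT compete for MAX and repress through SIN3 corepressors. In neuroblastoma, MYCN amplification marks aggressive tumours, but SH-SY5Y is one of the lines without it. LIN28B blocks maturation of let-7 microRNAs, and the LIN28B messenger is itself a known let-7 target.

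The let-7 family is shown first because it joins LIN28B to the genes it controls. In the RefSeq table (GRCh38.p14), 12 hairpins gave 9 distinct mature 5p microRNAs, and all 9 shared the seed GAGGUAG (bases 2 to 8). Members from separate host genes are written 5′ to 3′ with the seed in capitals.
hsa-let-7b-5p: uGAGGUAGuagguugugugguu
hsa-let-7g-5p: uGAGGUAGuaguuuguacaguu
hsa-let-7i-5p: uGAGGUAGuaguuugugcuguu
hsa-miR-98-5p: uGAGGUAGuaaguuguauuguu
They lie at chr22:46113691-46113712 (plus strand), chr3:52268336-52268357 (minus strand), chr12:62603691-62603712 (plus strand) and chrX:53556299-53556320 (minus strand). Mature microRNAs were not measured by these libraries.

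The complement of that seed, CTACCTC, was searched on the sense strand of the 3′ UTR of the principal GENCODE 29 transcript. LIN28B held 4 matches in 4549 bases. They are shown, with the matching bases in capitals, because none of the other 8 genes searched had more than 1. MYC was not searched.
LIN28B site 1: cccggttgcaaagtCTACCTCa
LIN28B site 2: actgatgatagtaaCTACCTCt
LIN28B site 3: tttacagcaaaaggCTACCTCa
LIN28B site 4: aatgatggtgttgaCTACCTCt
These sites are on the plus strand of GRCh38 at chr6:105078813-105078834, chr6:105081240-105081261, chr6:105081422-105081443 and chr6:105082861-105082882. Of 1286 protein-coding genes with a 3′ UTR of similar length, from 20% shorter to 25% longer,, 23.6% held at least 1 match and 0.233% held at least 4. MXD1, with 1 match, was the other one among the 9 network genes searched. The absence of these letters elsewhere says nothing of sites with other pairing.

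E-boxes were searched as CACGTG, which reads the same on both strands, from 250 bases before to 50 after each RefSeq start. Of the 14 windows found for 9 of the genes, 4 held the motif, against 7.26% of all 35116 windows. Those windows belonged to MXD4, MNT, LIN28B and ODC1. For ODC1, a textbook MYC target, window 2 held 2 copies and window 1 held 0. At least 2 copies were found in 0.664% of all windows. LIN28B had the motif in window 2 and not in window 1. The motif is in capitals.
MXD4: gccgggccacCACGTGctgttgctaa
MNT: ctgcccgggcCACGTGtgcgcgcgcc
LIN28B: ttgacaaagtCACGTGtgctcagggg
ODC1 first copy: gggccccgggCACGTGtgcggcgcgc
ODC1 second copy: cctgcggagaCACGTGgtcgccgagc
The MXD4 (chr4:2262332-2262357, minus strand) and MNT (chr17:2401238-2401263, minus strand) stretches lie upstream of the GENCODE 29 genes. The LIN28B stretch (chr6:104957050-104957075, plus strand) is exonic in 1 of 3 transcripts that span it. Both ODC1 stretches (chr2:10448026-10448051 and chr2:10447992-10448017, minus strand) are intronic in the 2 transcripts that span them. A match describes letters only, and binding was not measured.

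The libraries held 8887854 to 11397407 counts, and a count of 0 allows up to 3 counts, or 0.263 to 0.339 CPM (counts scaled by library size, with TMM factors). Their counts differed by more than sampling in every pair, with chi-square per degree of freedom from 2.21 to 10.2. Replicate 3 had 6.25% mitochondrial counts against 3.83 and 4.11%, and the highest chi-square values were those of its pairs. Libraries also differed by GC content. Among the genes of lowest GC (30.2 to 38.3%) the median deviation (log2) was -0.14, -0.01 and 0.16 in replicates 1, 2 and 3, and among those of highest GC (61.3 to 74.5%) it was 0.11, 0.05 and -0.16. Replicates 1 and 3 thus had opposite trends of similar size, whose origin was not tested. Of the noradrenergic neuroblastoma markers, 9 of 10 had at least 10 counts in every library, with a summed level of 3001 to 3357 CPM, while TH was at 0 in all 3. Of the mesenchymal markers, 9 of 10 passed, with 896 to 924 CPM summed and PRRX1 at 0. Leukocyte, epithelial, endothelial and glial markers summed to at most 2.43, 2.63, 0.187 and 5.19 CPM, with CD3E, CDH1, CDH5 and SOX10 at 0 in every library. Other members of these lists did have at least 10 counts in every library. These were CD14 (25, 21 and 14 counts), EPCAM (11, 14 and 13) and S100B (46, 45 and 44). The leukocyte marker CD68 had 0, 0 and 1 counts, but exons of another gene on its strand cover 81.7% of its exon bases. Its level is uncertain, as the treatment of shared reads is not given in the sources used here.

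MYC had the highest messenger level of the 3 paralogs, and MYCN and MYCL were low. In bulk RNA a lower level may stand for fewer cells with the messenger or for less of it per cell, which cannot be told apart. MYC (ENSG00000136997.21), a general growth regulator, had 178, 238 and 136 counts in replicates 1, 2 and 3. That is 16.6, 20.8 and 15.4 CPM, a mean of 17.6 ± 2.86 (SD, n = 3). Replicate 2 was the highest and the other libraries lay close together. MYCN (ENSG00000134323.12), the paralog of neural crest development, had 24, 27 and 15 counts, or 2.24, 2.36 and 1.69 CPM, with a mean of 2.10 ± 0.357. MYCL (ENSG00000116990.11), known from lung cancer, had 32, 34 and 23 counts, or 2.99, 2.98 and 2.60 CPM, with a mean of 2.85 ± 0.223. No MYCN or MYCL value reached the lowest MYC value. Exact 95% Poisson intervals, which cover counting error only, ran from 0.948 to 3.44 CPM over the MYCN libraries and from 12.9 to 23.6 CPM over the MYC libraries.

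Levels were compared between genes as CPM per kilobase of merged GENCODE 29 exons. On this scale MYC was at 5.87 ± 0.953, MYCN at 0.807 ± 0.137 and MYCL at 0.564 ± 0.0441 (SD, n = 3). MYC was 7.27 times MYCN, 9.22 times with the longest and 13.2 times with the median transcript as the length. It made up 79.2, 82.3 and 81.5% of the summed level of the 3 paralogs in replicates 1, 2 and 3. The order of MYCN and MYCL depends on the length used: MYCL was higher in CPM and per kilobase of the longest or the median transcript. MYC exceeded 65.3% of protein-coding genes, MYCN 43.1% and MYCL 40.9%.

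**Figure D1:**
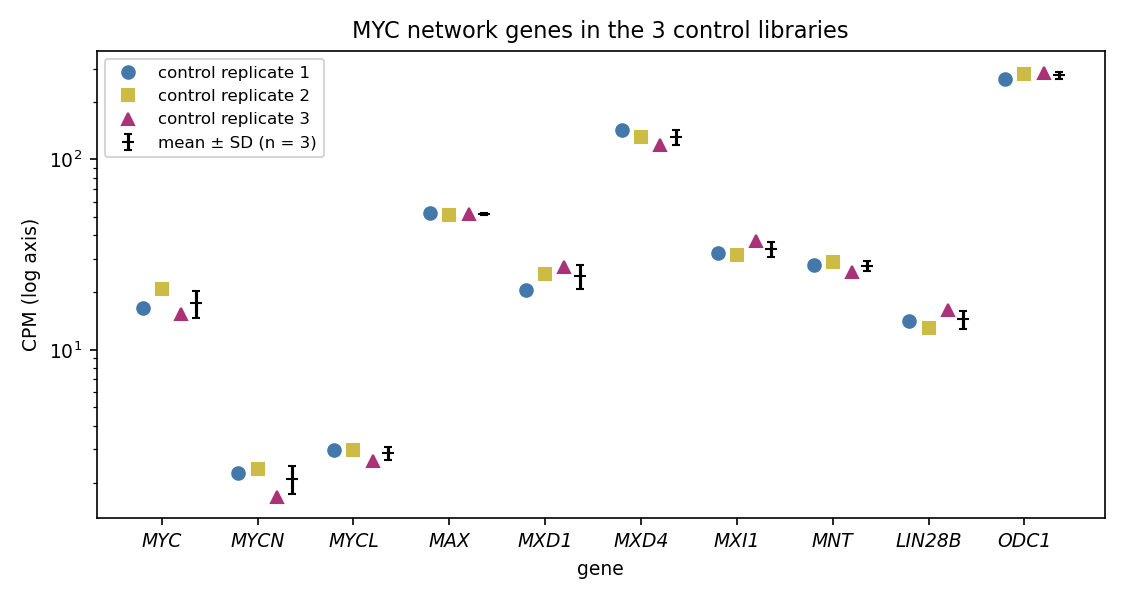
CPM on a log axis for each of the 10 genes in the 3 control libraries (symbols), with the mean and SD (n = 3) as black bars. MYCN and MYCL lie below 3 CPM in every library, MYC between 15.4 and 20.8 CPM, and ODC1 between 264 and 285 CPM.

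Genes next to MYCN and MYC on the chromosome gave a further view of these loci. DDX1, an RNA helicase gene often amplified together with MYCN, had 2879, 3478 and 2769 counts, a mean of 295 ± 23.1 CPM. NBAS had 63.9 ± 2.01 CPM and CYRIA 9.75 ± 0.851 CPM. MYCNOS, the antisense transcript of MYCN, had 2, 3 and 1 counts, and MYCNUT had 0 in every library. MYCNOS exons cover 3.77% of the MYCN exon bases, and whether counting used strand is not given in the sources used here. PVT1, the non-coding neighbour of MYC, named after its value was seen, had 7.94 ± 0.596 CPM.

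MAX had the smallest relative spread of TMM-scaled CPM among the 10 genes, though not with the GC trend removed. MAX (ENSG00000125952.20) had 556, 581 and 460 counts, which scaled to 52.0, 50.8 and 51.9 CPM, a mean of 51.6 ± 0.650 (SD, n = 3). The libraries were nearly level, and the coefficient of variation of 1.26% was below the 4.36% that counting alone gives. With each library's GC trend removed it was 3.88%, against 2.68% for MYCL and 3.08% for MXD4. Per kilobase, MAX was at 11.6 ± 0.147, which was 1.68, 1.36 and 1.87 times the summed level of MYC, MYCN and MYCL in replicates 1, 2 and 3. The lowest of these ratios was in replicate 2, where MYC was highest. Their mean of 1.63 became 4.66 with the median transcript length.

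Among the antagonists MXD4 was the most abundant. MXD4 (ENSG00000123933.17), a MAX partner linked to differentiation, had 1517, 1497 and 1059 counts, or 142, 131 and 120 CPM, with a mean of 131 ± 11.1. Replicate 3 was the lowest. MXI1 (ENSG00000119950.21), also named MXD2, had 345, 361 and 332 counts, or 32.3, 31.6 and 37.5 CPM, with a mean of 33.8 ± 3.23. Here replicate 3 was the highest and replicates 1 and 2 were nearly equal. MNT (ENSG00000070444.15), the broadly expressed MAX-binding repressor, had 299, 332 and 228 counts, or 28.0, 29.1 and 25.7 CPM, with a mean of 27.6 ± 1.68. MXD1 (ENSG00000059728.11), induced when cells leave the cycle, had 220, 287 and 242 counts, or 20.6, 25.1 and 27.3 CPM, with a mean of 24.3 ± 3.44. Its replicate 1 was the lowest library.

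Per kilobase the antagonists were at 18.5 ± 1.58 for MXD4, 7.33 ± 0.701 for MXI1, 3.83 ± 0.542 for MXD1 and 3.16 ± 0.193 for MNT (SD, n = 3). Their sum was 4.79, 3.88 and 5.15 times that of the 3 MYC paralogs in replicates 1, 2 and 3. The mean of 4.61 became 21.1 with the median transcript length. MXD4 alone held 59.9, 56.8 and 52.4% of the antagonist sum. This sum leaves out MXD3, another gene of the MXD group, at 4.97 ± 0.493. Antisense exons of another gene cover 12.2% of the MNT exon bases, the highest such share among the 10 genes, and SNRNP27 exons cover 3.73% of those of MXD1 on the same strand. Protein was not measured.

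In GENCODE 29 (GRCh38) MYCN lies at chr2:15940564-15947007 (plus strand), MYCL at chr1:39895426-39902256 (minus strand), MAX at chr14:65006174-65102695 (minus strand) and MXD1 at chr2:69897688-69942945 (plus strand). MXD4 lies at chr4:2247432-2262294 (minus strand), MXI1 at chr10:110207605-110287365 (plus strand) and MNT at chr17:2384060-2401118 (minus strand). LIN28B lies at chr6:104936616-105083332 (plus strand) and ODC1 at chr2:10439968-10448504 (minus strand).

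Of the remaining MAX and MLX network genes, 4 of 5 had at least 10 counts in every library. MLX, the partner of the glucose-sensing MondoA branch, had 15.7 ± 0.0944 CPM per kilobase, and MGA, a very large MAX partner with a T-box domain, had 10.5 ± 0.298. MLXIP, which encodes MondoA, had 7.07 ± 0.581 and MXD3, an S-phase member of the MXD group, 4.97 ± 0.493. MLXIPL, which encodes ChREBP, had 16, 28 and 9 counts, a mean of 0.344 ± 0.152. MLX and MXD3 share 18.1 and 22.5% of their exon bases with genes on the opposite strand, and MXD3 shares 18.0% with a gene on its own strand.

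LIN28B was present and its paralog LIN28A was close to absent from the counts. LIN28B (ENSG00000187772.8) had 152, 148 and 143 counts, or 14.2, 13.0 and 16.1 CPM, with a mean of 14.4 ± 1.61 (SD, n = 3). Replicate 3 was the highest library. Per kilobase its level was 2.41 ± 0.268, above 52.0% of protein-coding genes, whose median was 1.99. LIN28A had 0, 1 and 1 counts, all within the limit that a count of 0 allows.

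The let-7 processing genes were measured beside LIN28B, and 10 of 11 had at least 10 counts in every library. XPO5, the exporter of microRNA precursors, was highest at 21.1 ± 0.575 CPM per kilobase, followed by DROSHA, the nuclear processing enzyme, at 14.3 ± 0.487 and TARBP2, a DICER1 partner, at 9.28 ± 0.738. TRIM71, a stem-cell ubiquitin ligase and let-7 target, had 20, 15 and 22 counts. The median of the list was 8.02 ± 0.181, against 1.99 for all protein-coding genes and 7.10 for those that reached 10 counts in each library.

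Host genes of let-7 hairpins were found by position on the same strand for 9 of the 12 hairpins, which gave 7 hosts. WDR82, which holds let-7g, had 57.4 ± 1.56 CPM per kilobase, and HUWE1, a ubiquitin ligase gene that holds miR-98 and let-7f-2, had 34.4 ± 2.68. The other 5 were below the median of protein-coding genes. MIRLET7BHG, which holds let-7b and let-7a-3, had 107, 90 and 64 counts, or 1.46 ± 0.254 per kilobase. MIRLET7IHG had 37, 34 and 31 counts and MIR100HG, the host of let-7a-2, had 28, 33 and 36. A host's count is no measure of the mature microRNA.

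Genes known as let-7 targets were mixed: 11 of 16 had at least 10 counts in every library, and 8 of 16 lay above the median of all protein-coding genes. HMGA1, a chromatin architecture gene, was highest at 96.4 ± 2.82 CPM per kilobase, followed by CDC34 at 50.5 ± 5.41 and NRAS at 28.4 ± 1.12. HMGA2, the paralog of HMGA1, and CCND2, a cyclin gene, had 0 counts in all 3 libraries. IGF2BP1 had 0, 7 and 4 counts and IGF2BP2 8, 6 and 2, while IGF2BP3, from the same family of oncofetal RNA-binding proteins and named after its value was seen, had 776, 881 and 677. The seed match was found in the searched 3′ UTR of 14 of the 16, with 4 copies in HMGA2 and 1 in HMGA1. Between 3.04 and 30.2% of genes with a 3′ UTR of length like that of each of the 16 hold a match, and the list was drawn from known let-7 targets.

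ODC1 was the most abundant of the 10 genes. ODC1 (ENSG00000115758.13), the rate-limiting enzyme of polyamine synthesis, had 2820, 3205 and 2526 counts, or 264, 280 and 285 CPM, with a mean of 276 ± 11.3 (SD, n = 3). Replicate 1 was the lowest. Per kilobase it was at 93.2 ± 3.81, above 98.5% of protein-coding genes and 5.03 times the next gene, MXD4. That gap depends on the length used, at 3.37 times with the longest and 1.01 times with the median transcript.

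Other polyamine genes were lower than ODC1 per kilobase, except OAZ1. OAZ1, the antizyme that sends ODC1 protein to the proteasome, was at 94.9 ± 4.84, and its range overlapped that of ODC1. AZIN1, the antizyme inhibitor, had 43.4 ± 5.11, SMS, spermine synthase, 32.0 ± 1.69, SRM, spermidine synthase, 29.1 ± 1.37, and AMD1, which makes the aminopropyl donor, 16.4 ± 1.68. At the low end, PAOX, a polyamine oxidase gene, had 8, 9 and 4 counts, and OAZ3, the testis antizyme, had 16, 23 and 22. In all, 12 of the 13 genes reached 10 counts in each of the libraries and 11 were above the median of all protein-coding genes. Above the median of the protein-coding genes that reached 10 counts in each library were 8 of 13.

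Genes that control MYC protein were all measured, 12 of 12 for turnover and 14 of 14 for cofactors and corepressors, and each lay above the median of all protein-coding genes. Against the median of those that reached 10 counts in each library, 7.10 CPM per kilobase, 11 and 13 of them lay above, and FBXW7 and KAT5 below. In the turnover list SET, an inhibitor of the phosphatase PP2A, had 107 ± 3.42 CPM per kilobase, HUWE1 34.4 ± 2.68 and USP7, a deubiquitinase, 22.1 ± 0.478. AURKA, the kinase that shields MYCN protein from degradation, had 19.8 ± 0.700. FBXW7, the ubiquitin ligase subunit that marks phosphorylated MYC, was the lowest at 3.09 ± 0.117, next to PPP2R5A at 8.31 ± 0.769. Among cofactors RUVBL2, a chromatin helicase, had 45.9 ± 1.31, HDAC1 28.2 ± 1.06 and WDR5 27.5 ± 2.94, while KAT5, an acetyltransferase gene, had 4.21 ± 0.280. Exons of the opposite strand cover 38.6% of the KAT5 exon bases.

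Textbook MYC targets beyond ODC1 had a median of 22.3 ± 2.50 CPM per kilobase, and 18 of 22 were above the median of all protein-coding genes. Above the median of those that reached 10 counts in each library were 17 of 22. NCL and NPM1, nucleolar protein genes of ribosome assembly, had 153 ± 5.90 and 138 ± 6.95, and HSPD1, a mitochondrial chaperonin gene, had 114 ± 9.68. SLC19A1, a folate carrier gene, had 1.79 ± 0.137, and TERT, the telomerase catalytic subunit gene, 1.75 ± 0.473 from 84, 118 and 53 counts. NPM1, HSPD1 and HMGA1 have processed pseudogene copies, and since the handling of reads that fit several genes is not given in the sources used here, their levels are uncertain. The same holds for EIF4A1 and PPAN, named for their overlap. Other genes on their own strand cover 48.6 and 59.8% of their exon bases.

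**Figure D2:**
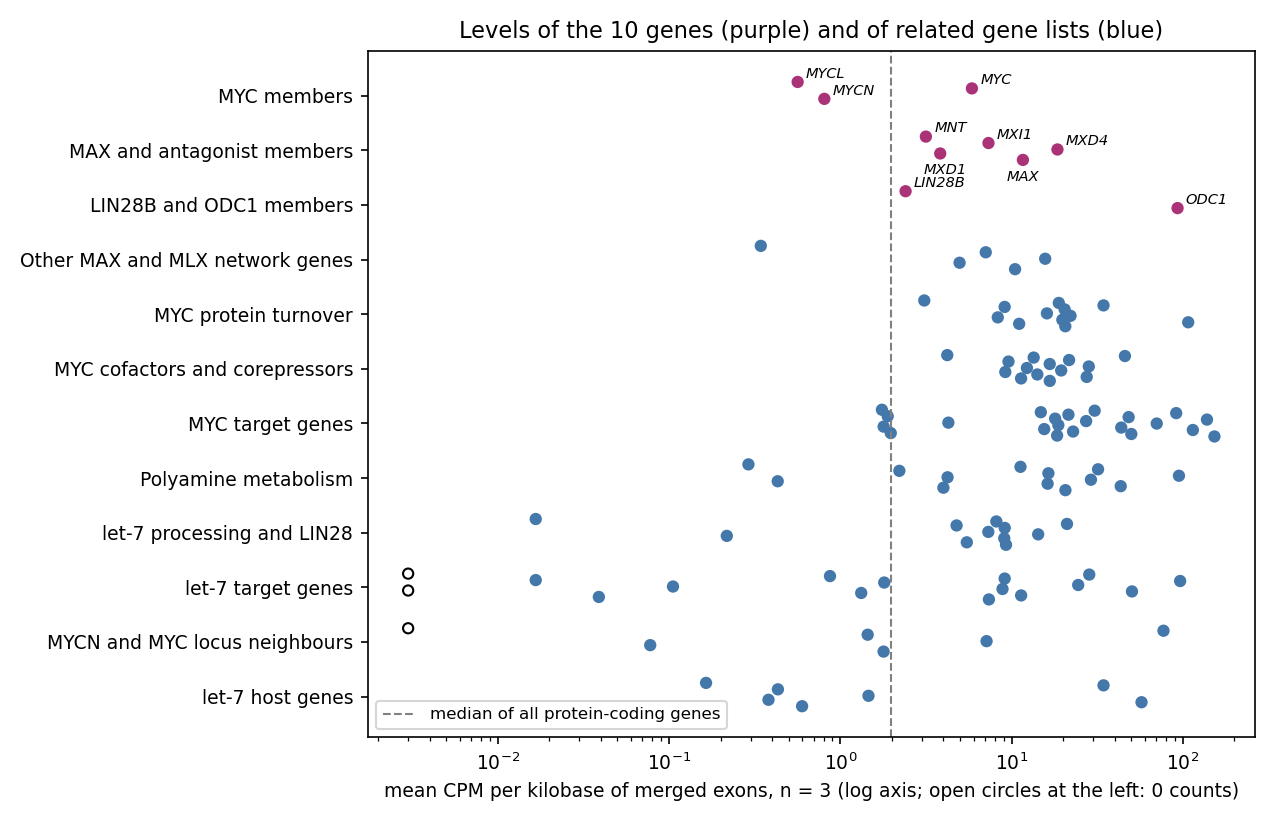
Mean CPM per kilobase of merged exons (log axis, n = 3) for the 10 genes (purple) and the related lists (blue), one point per gene, with the median of all protein-coding genes as a dashed line. Of the 10 genes 8 lie right of the line at 1.99 and MYCN and MYCL left of it, while 4 exceed the median of 7.10 of the protein-coding genes with 10 counts in each library, and open circles mark HMGA2, CCND2 and MYCNUT at 0 counts.

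Ordered per kilobase, the 10 genes ran ODC1, MXD4, MAX, MXI1, MYC, MXD1, MNT, LIN28B, MYCN and MYCL. Of the 9 neighbouring pairs, 2 had ranges that overlapped between libraries, MXI1 with MYC and MXD1 with MNT. ODC1, MXD4, MAX and LIN28B held the same places with the longest or the median transcript as the length. With the median transcript MYC fell from place 5 to 7 and MNT moved from place 7 to 4.

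The spread between libraries exceeded the counting error for 7 of the 10 genes. The share of all genes for which it did was not determined, so this count does not set the 10 apart. MYC varied by 16.2% where counting gives 7.57%, MXD1 by 14.2% against 6.37%, MXD4 by 8.51% against 2.75% and MXI1 by 9.56% against 5.38%. LIN28B varied by 11.2% against 8.23% and ODC1 by 4.09% against 1.88%, and for MNT the difference was slight, 6.11% against 5.98%. For MYCN, MYCL and MAX the spread was below the counting error. In the edgeR fit over 13920 genes the gene-wise biological coefficient of variation was 9.69% for MYC, higher than for 87.5% of genes, and 6.62% for ODC1, higher than for 4.06%. edgeR draws each gene's value towards that of all genes, so MAX still had 7.24%. The median over the 10 genes was 8.07% and fell to 4.79% without replicate 3. It lies near the middle of all genes, as MYCL at 8.04% and MXI1 at 8.10% were higher than 49.6 and 52.0% of them. The median is therefore not particular to the 10 genes. Its fall without replicate 3 was not compared with that over all genes.

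**Figure D3:**
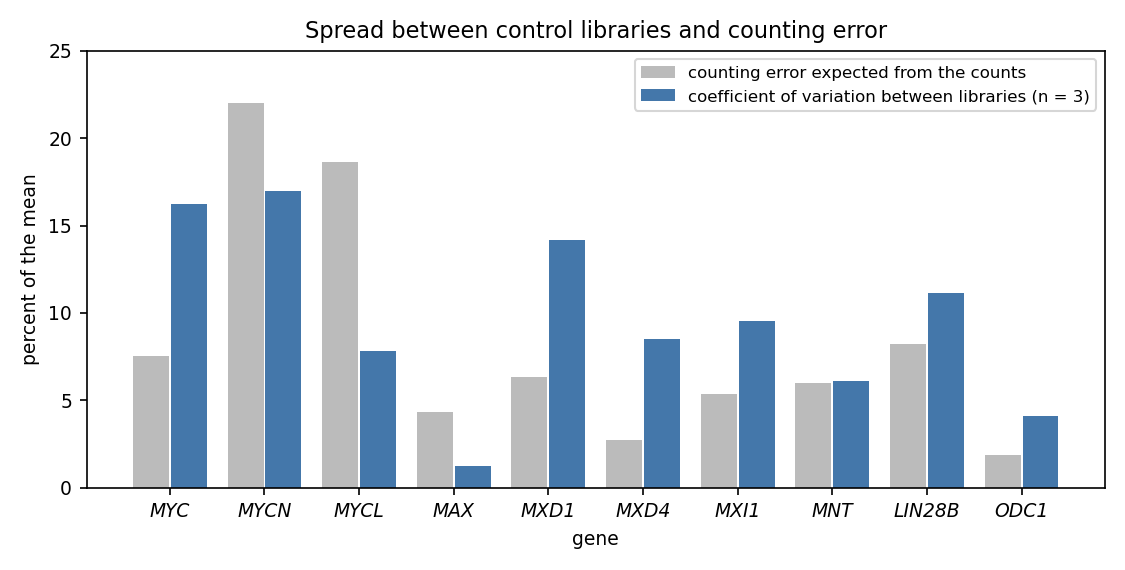
Coefficient of variation between the 3 control libraries (blue) and the counting error expected from the counts (grey), in percent of the mean, for each gene. MYC and MXD1 stand at 16.2% and 14.2%, above their counting error, while the MYCN and MYCL bars stay below theirs.

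Each library was set against the mean of the other 2, and genes at least 25% higher or 20% lower were counted, a log2 difference of 0.32 either way. With 1 library on one side this is a description without a test. MXD1 was lower in replicate 1, by a log2 difference of -0.35, where 7.96% of the 13920 genes were at least 20% lower and 5.65% at least 25% higher. MYC was higher in replicate 2, by 0.38, where 3.99% of genes were higher and 5.41% lower by these limits. MYCN was lower in replicate 3, by -0.44 on 15 counts, where 8.95% of genes were lower and 9.59% higher. No other network gene passed in any library, and 1 of 10 per library is near those shares.

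In replicate 3 the sign of the differences went with GC content. LIN28B (38.1% GC), MXD1 (42.7%) and MXI1 (43.7%) were higher there, by 0.25, 0.26 and 0.23 on the log2 scale. MYC (53.9%), MYCL (55.1%), MYCN (56.9%), MXD4 (57.6%) and MNT (61.4%) were lower, with differences of -0.29, -0.20, -0.44, -0.19 and -0.15. MAX and ODC1, at 51.3 and 51.2% GC, differed by 0.01 and 0.07. With the GC trend of each library removed, LIN28B came to 0.06, MXD4 to -0.05 and MNT to 0.07, and the SD fell for 8 of the 10 genes. The trend was taken from these same libraries, so its removal tends to lower the spread of genes in general. The share of all genes with a lower SD was not determined. MXD1 and MXI1 remained at 0.18 each, MYC at -0.17 and MYCN at -0.29. ODC1 and MAX moved away from 0, to 0.15 and 0.10, and theirs were the SDs that rose. In replicate 1 removal brought 5 of the 10 genes closer to 0 and 5 farther from it, among them MYC, from -0.12 to -0.21, and LIN28B, from -0.03 to 0.14. The split over all genes was not determined. After removal MYC in replicate 2 was the only one of the 10 past the limits, higher by 0.36, where 3.58% of genes were higher and 5.88% lower. In replicate 1 none of the 10 passed, where 4.27% of genes were higher and 5.68% lower, nor in replicate 3, where 6.85% were higher and 5.01% lower.

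**Figure D4:**
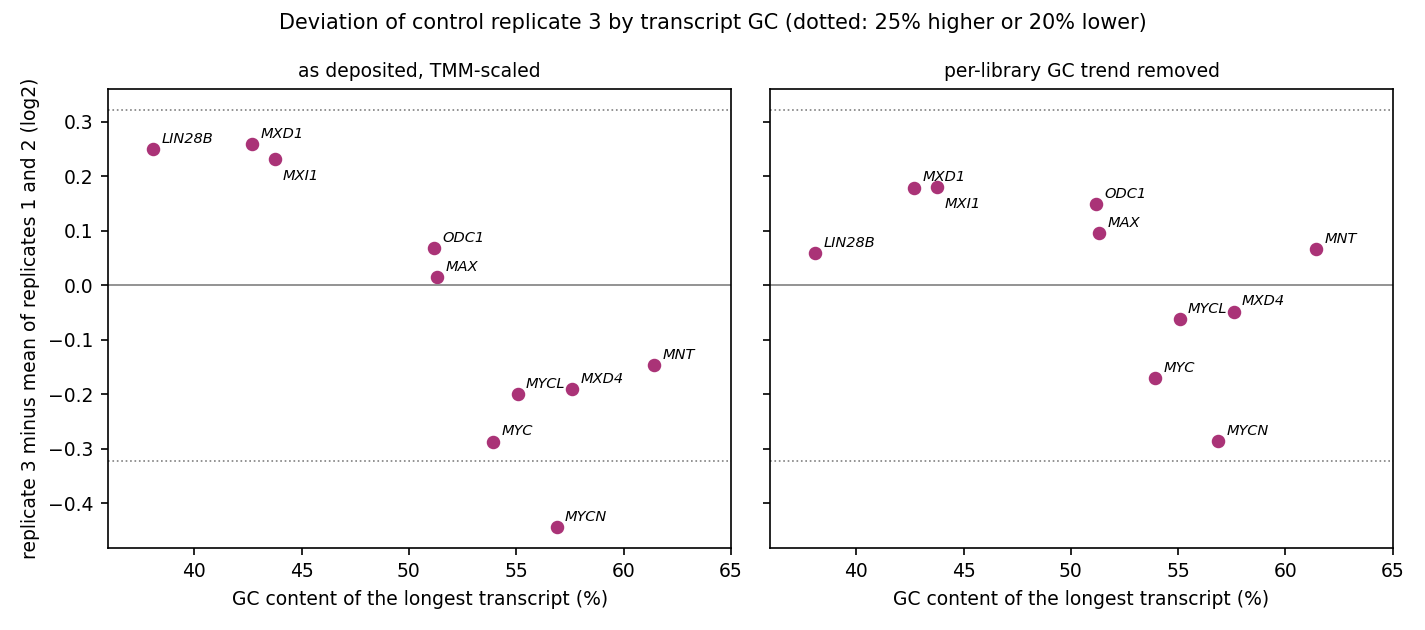
Log2 difference of control replicate 3 from the mean of replicates 1 and 2 against the GC content of the longest transcript, for the 10 genes, with TMM-scaled counts (left) and with each library's GC trend removed (right). On the left LIN28B, MXD1 and MXI1 lie at 0.23 to 0.26 and MYCN at -0.44, and on the right all 10 lie within the dotted lines at 25% higher and 20% lower.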

How the data were processed

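Whole-number read counts for each Ensembl gene, not normalized, make up the table as deposited by the authors. Per the submitters' processing notes, fastp 0.21.1, STAR 2.7.7a, featureCounts and GRCh38 were used, while their roles, the annotation, strand setting and treatment of shared reads are not given in the sources used here. Columns were matched to samples by number, and 3 columns matching no sample were not used. One gene broken over several lines and 2 lines naming no gene were left out, and 60480 of 60709 identifiers matched a symbol.

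Counts were scaled to CPM with TMM factors (edgeR 4.0.16, R 4.3.3). Per-kilobase levels used merged exons of GENCODE 29 (58463 identifiers matched), and GC content that of the longest transcript. The GC trend was the median deviation in 50 bins of 10290 nuclear genes whose mean count reached 100. Gene-wise variation came from edgeR over the genes that reached 10 counts in all 3 libraries. The edgeR step was tested on simulated data for the variation common to all genes, not gene by gene. The tables were made with scipy 1.17.1, pandas 2.3.3 and numpy 2.4.6 under Python 3.11.15. Exon overlap was counted in GENCODE 29.

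The genes and lists were chosen with earlier results of these data known. Named were the 10 genes, 12 further genes by name, and of each list the 3 highest, the 2 lowest and those under 10 counts in each library, except 1 gene that is not reported here. Host genes were taken by position, which replaced a list that held genes without a let-7 hairpin. The planned edgeR test of treated against control samples was not run, as only control columns were matched.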

Additional observations from a re-analysis of the deposited data

How the results depend on the processing

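No paired analysis was possible because only control columns were matched to samples. The planned treated-against-control alternatives (DESeq2, no filter, replicate numbers, left-out replicates) were not run for the same reason. Library scaling (RLE, totals alone), the GC trend and leaving out a replicate moved none of the 10 mean CPM levels by 1 SD. Leaving out 1 of 3 libraries cannot move a mean that far, so its outcome was fixed in advance. The GC trend was taken around each gene's mean over libraries, so its removal can hardly move that mean. Leaving out mitochondrial genes raised MAX to 54.2 and ODC1 to 290.3 CPM, as it raises all genes by about 5.00%.

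The length decides the per-kilobase values. With the median transcript length the MYC share of its family was 83.4% (81.0% with merged exons), MAX over the family 4.66 (1.63), the antagonists over the family 21.1 (4.61) and the MXD4 share of the antagonists 65.1% (56.4%). With the longest transcript, chosen after the data were seen, the last pair were 5.61 and 61.1%. Leaving out a replicate gave 80.4 to 81.9%, 1.52 to 1.77, 4.33 to 4.97 and 54.6 to 58.3%.

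The median biological coefficient of variation of the genes, 8.07%, was 4.79% to 11.3% with 1 replicate left out, lowest without replicate 3, and 5.31% without the GC trend. The 1 gene past the limits of 25% higher or 20% lower in each library became 0 at 1.5-fold in all 3, 0 in replicates 1 and 3 with the GC trend removed, and 0 in replicate 3 with at least 50 counts required. Depth limits MYCN and MYCL, which rest on 15 to 34 counts a library.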
